A study of Mus musculus with 8 samples.

Results

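Hepcidin and 7 genes that handle iron were followed in mouse livers that carried an adenovirus coding for human A20 (TNFAIP3, an inhibitor of NF-κB signalling) or for β-galactosidase (βgal), before and after liver resection (LR). The members were chosen by name: Hamp (hepcidin), its ligand-side regulator Bmp6, the transferrin receptors Tfrc and Tfr2, the carrier Trf, the exporter Slc40a1, the importer Slc11a2 and the storage subunit Fth1. All probe sets that the array's annotation assigned to these 8 genes were taken, 20 of the 45101 on the array, where probe sets of 1 gene name 18194 genes. Of these, 17 entered the tests and all 17 passed the filter on low signal. The other 3 are manufacturer's control probe sets for Tfrc, whose values are given without a test.

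Liver RNA had been measured on 8 Affymetrix arrays (Mouse Genome 430 2.0) in 4 groups of 2: livers with A20 taken 24 h after a 78% resection (post-A20), livers with A20 taken at the resection (pre-A20), livers with βgal taken 24 h after resection (post-βgal) and livers with βgal taken at the resection (pre-βgal). All were BALB/c mice of 8 weeks that had received a recombinant adenovirus through the penile vein 5 days before surgery, and each array held RNA pooled from 3 mice. The βgal virus was the control for the vector, so that no group was free of adenovirus, and by the study's methods only a minority of hepatocytes expressed the transgene. For both post-A20 samples the treatment note repeats the wording of the βgal samples, while title, source and description give A20. These other labels were used, and no array value served to check them because the transgene is human. By the study's methods, RNA before resection came from the resected part and RNA after it from the remnant. Comparisons before and after resection therefore also compare different parts of the liver, and no group had surgery without resection. Resection, surgery and part of the liver cannot be told apart. The study analysed its quantitative PCR as matched pairs where possible. The array labels do not say whether the pools before and after surgery came from the same mice. The main fit took the pools as independent, and p-values measure the spread between pools.

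Hepcidin is a peptide hormone made mainly by hepatocytes. It binds ferroportin, the only known exporter of iron in mammals, and causes its degradation, so that iron stays in macrophages, enterocytes and hepatocytes. Transcription of Hamp is driven by iron through BMP6 and SMAD proteins and by inflammation through interleukin 6 and STAT3, while the messages of Tfrc, Slc40a1, Slc11a2 and Fth1 carry iron responsive elements read by the iron regulatory proteins.

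The proximal promoter of Hamp is shown because both inputs meet within a short stretch of it, and that of Hamp2, the neighbouring second hepcidin gene of the mouse, because a Hamp probe set may also detect its message. Capitals mark GGCGCC, the core of the BMP responsive element, and TTCNNNGAA, a STAT element; both were searched on both strands, and no match of the first overlapped the second. Sequences are RefSeq's on GRCm38.p6, minus strand, 5′ to 3′, chr7:30944094-30944150 for Hamp, -121 to -65 from its start, and chr7:30924243-30924299 for Hamp2, -118 to -62 from its start.
Hamp: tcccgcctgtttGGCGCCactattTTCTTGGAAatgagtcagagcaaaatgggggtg
Hamp2: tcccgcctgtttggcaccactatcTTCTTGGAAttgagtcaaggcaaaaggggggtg
The stretches were identical at 51 of 57 bases. Counted from 1 at the 5′ end of the stretch, Hamp2 carried the substitution G16A inside the GGCGCC of Hamp, at bases 13 to 18, and so had no match there, while TTCTTGGAA was the same in both.

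Windows of 300 bases around the start were at hand for 5 of the 8 members, Hamp, Bmp6, Tfrc, Tfr2 and Fth1, in 9 windows. GGCGCC was found in 2 of the 9 windows, at -109 in that of Hamp and at -89 in 1 of those of Tfrc, against 11.9% of all 32851 windows. TTCNNNGAA was found in 1 of the 9 windows, that of Hamp, at -97, against 8.3% of all windows. The loop CAGTGN of an iron responsive element, searched on the transcribed strand in the 50 bases after the start, was present in 1 of the 9 windows, a window of Tfr2, against 7.08% of all. The loop search covered only these 50 bases, so an element elsewhere in a message could not be found, and Slc40a1 and Slc11a2 had no window. A match is a description of these letters, not a bound site.

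Ferroportin (Slc40a1) was lower after resection. It was the only 1 of the 8 genes with a change that passed the test in the main fit of 4 group means to all 8 arrays, without a replicate block. Some alternative fits also called probe sets of Tfrc, Tfr2 or Slc11a2. These fits had a block within each transgene, had the RNA integrity ratio as a covariate or left out βgal arrays. The probe sets are named with their values where they are described and in the closing section. The other 16 tested probe sets passed the threshold (adjusted p under 0.05, limma with Benjamini-Hochberg adjustment over 42703 probe sets) in none of the 7 comparisons. An unadjusted p under 0.05 was found for 4 of the 17 probe sets between pre-A20 and pre-βgal livers (21.3% of all probe sets), for 4 between post-A20 and post-βgal livers (18.4%), for 6 with resection in A20 livers (14.7%) and for 2 with resection in βgal livers (20.5%). It was found for 3 for A20 averaged over resection (24.5% of all), for 3 for resection averaged over the transgenes (18.7%) and for 4 for the interaction (15.6%), which is the response to resection with A20 minus that with βgal.

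Over all probe sets, 1.83% were called between pre-A20 and pre-βgal, 0.283% between post-A20 and post-βgal, 0.546% with resection in A20 livers and 1.11% with resection in βgal livers. Averaged over resection, 4.07% were called for A20, and averaged over the transgenes, 3.11% were called for resection, 1.88% higher and 1.23% lower. The interaction called 0.00234% of probe sets. The single call among the 17 members therefore stood beside a background of 3.11%.

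With 2 arrays a group, non-overlapping signals were frequent everywhere. The arrays did not overlap for 11 of the 17 member probe sets between pre-A20 and pre-βgal (50.5% of all probe sets), for 9 between post-A20 and post-βgal (57%), for 10 with resection in A20 livers (50.4%) and for 7 with resection in βgal livers (50.8%). With 4 arrays a side, 1 member probe set did not overlap for A20 (10.3% of all) and 2 did not for resection (7.47%). The median log2 fold change over the 17 was -0.05 for resection averaged over the transgenes, beside -0.01 over all probe sets, and -0.01 for A20 averaged over resection, beside 0.01.

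**Figure D1:**
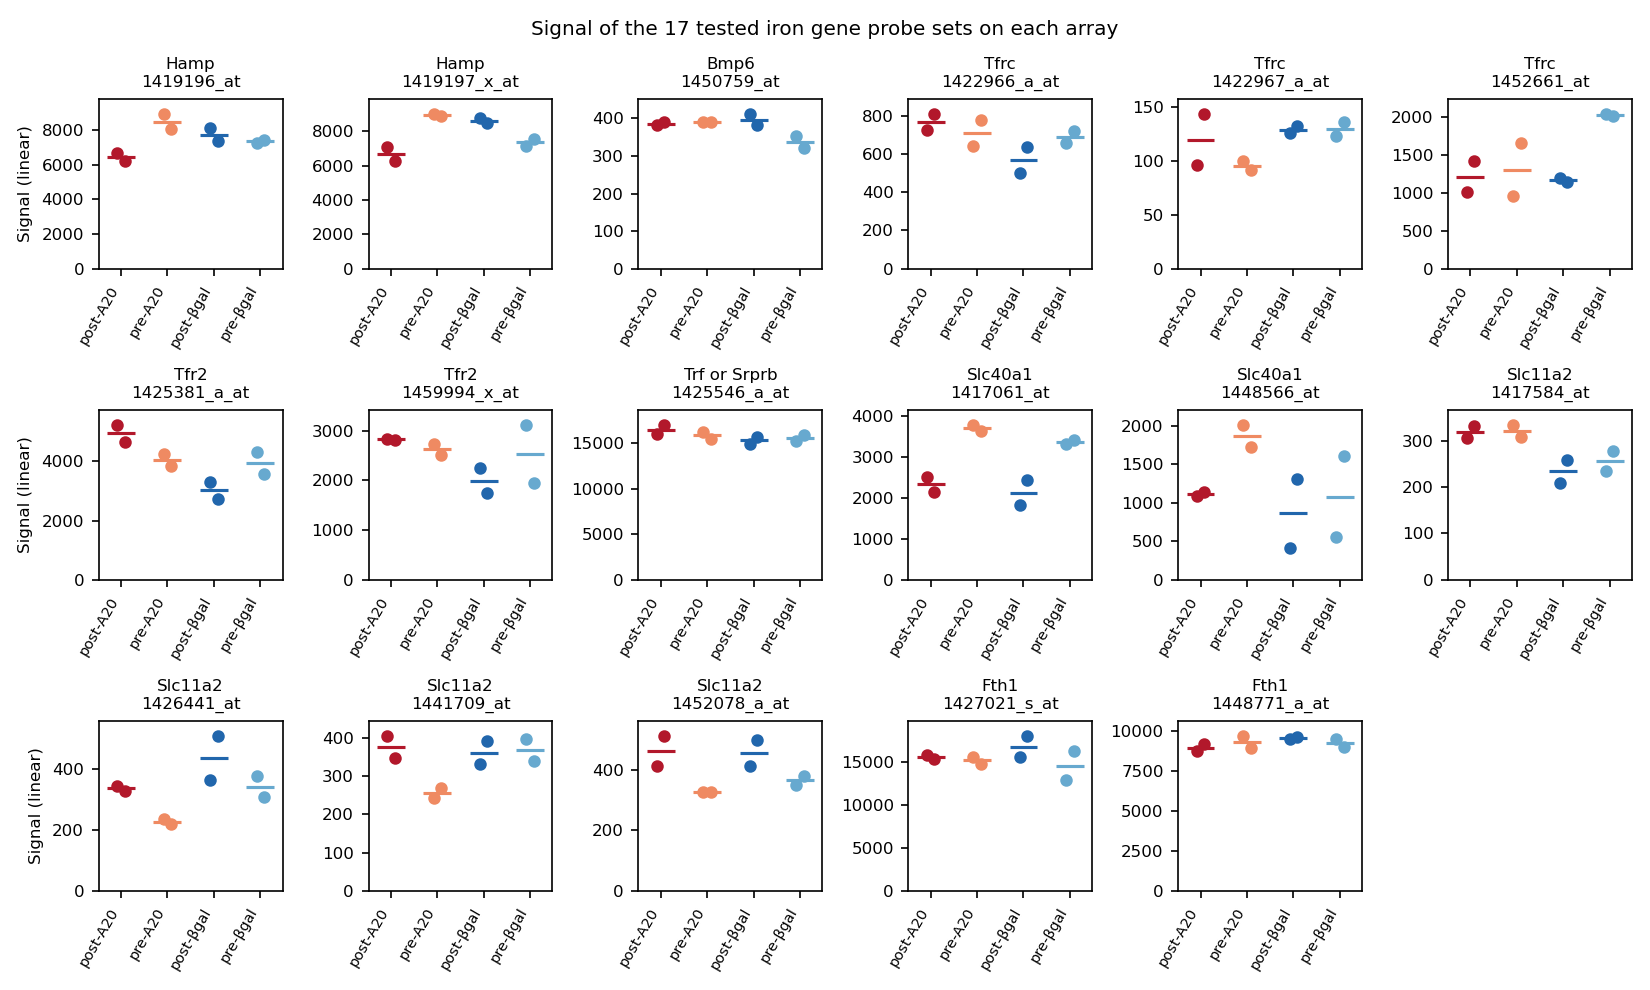
Signal (linear, normalized intensity, axis from 0) of each of the 17 tested probe sets, with a point for each array and a line at the group mean, for post-A20, pre-A20, post-βgal and pre-βgal livers. Slc40a1 1417061_at lies at 1815 to 2511 on the 4 post-resection arrays and at 3317 to 3770 on the 4 pre-resection arrays.

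RNA integrity separated a pair of arrays from the rest. The control probe sets for β-actin gave a 3′ over 5′ signal ratio of 7.0 on pre-βgal array 1 and 3.64 on post-βgal array 1, against 1.27 to 1.62 on the other 6 arrays. Without these 2 arrays the members' log2 fold changes moved. In post-βgal against pre-βgal livers that of Slc11a2 1426441_at moved most, to 0.70 from 0.32 with all arrays. In the A20 comparisons that of Slc40a1 1448566_at moved most. Before resection it went to 0.21 from 0.97 (pre-A20 against pre-βgal livers). After resection it went to -0.23 from 0.58 (post-A20 against post-βgal livers), and averaged over resection to -0.01 from 0.77. The hepatocyte marker sum (5 genes tested, Alb, Ttr, Apoa1, Apoa2 and Fgb) was 82784 to 90543 on all 8 arrays, lowest on both pre-βgal arrays (82784 and 82804). Of the 5 genes, 1 was called higher with resection in βgal livers and 1 averaged over the transgenes. The largest log2 fold changes there were 0.70 and 0.54, beside list medians of 0.02 and -0.01.

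Hepcidin itself had high signal in every group, and its changes did not pass the test. On Hamp 1419197_x_at, the brighter of the 2 probe sets, the signal was 7099 and 6255 in post-A20 livers, against 8985 and 8881 in pre-A20 livers. It was 8771 and 8474 in post-βgal livers, against 7134 and 7564 in pre-βgal livers. The groups did not overlap in either transgene, and they lay in opposite directions, lower after resection with A20 and higher after resection with βgal.

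With resection, Hamp 1419197_x_at had a log2 fold change of -0.42 (SE 0.13, adjusted p = 0.194, limma) in A20 livers and 0.23 (SE 0.13, adjusted p = 0.335) in βgal livers. The interaction was -0.65 (SE 0.18, 95% confidence interval -1.07 to -0.24, unadjusted p = 0.00673, adjusted p = 0.23) and so did not pass over all probe sets. Post-A20 livers stood at -0.37 against post-βgal livers (adjusted p = 0.204), and pre-A20 livers at 0.28 against pre-βgal livers (adjusted p = 0.249).

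The other hepcidin probe set, Hamp 1419196_at, had 6692 and 6196 in post-A20 livers, against 8901 and 8072 in pre-A20 livers, and 8124 and 7351 in post-βgal livers, against 7237 and 7434 in pre-βgal livers. Here the βgal arrays before and after resection overlapped. Its log2 fold change was -0.40 with resection in A20 livers (adjusted p = 0.226) and 0.08 in βgal livers (adjusted p = 0.773), with an interaction of -0.47 (SE 0.18, adjusted p = 0.291).

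The suffix _x_at marks probe sets with probes shared between genes, and the 2 hepcidin genes of the mouse are closely alike. Hamp2, which is not a member, was read by Hamp2 1436643_x_at with 2054 and 2018 in post-A20 livers, against 3895 and 3718 in pre-A20 livers, and with 3654 and 2973 in post-βgal livers, against 3784 and 3513 in pre-βgal livers. Its post-A20 arrays lay below the other 6. Hamp2 1436643_x_at had a log2 fold change of -0.90 with resection in A20 livers (SE 0.16, adjusted p = 0.0687), -0.69 in post-A20 against post-βgal livers (adjusted p = 0.123) and -0.75 for the interaction (adjusted p = 0.238). Hamp2 1456289_at, with 84 to 121 on all arrays, had -0.12 with resection in A20 livers (adjusted p = 0.686). How far the Hamp probe sets also read Hamp2 was not tested.

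Bmp6, the ligand that sinusoidal endothelial cells release when liver iron is high, varied little. Its only probe set, Bmp6 1450759_at, had 382 and 389 in post-A20 livers, against 389.8 and 391 in pre-A20 livers, and 411 and 383 in post-βgal livers, against 352 and 321 in pre-βgal livers. Both pre-βgal arrays lay lowest of the 8. The log2 fold change with resection was 0.23 in βgal livers (SE 0.12, adjusted p = 0.333) and -0.02 in A20 livers (SE 0.12, adjusted p = 0.971), with an interaction of -0.24 (adjusted p = 0.516).

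Tfr2, the hepatocyte receptor that senses transferrin-bound iron and acts upstream of hepcidin, was brightest in post-A20 livers. Tfr2 1425381_a_at had 5223 and 4671 in post-A20 livers, against 4268 and 3845 in pre-A20 livers, and 3302 and 2738 in post-βgal livers, against 4318 and 3559 in pre-βgal livers. The post-A20 arrays lay above, and the post-βgal arrays below, all 4 arrays taken before resection.

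Between post-A20 and post-βgal livers the log2 fold change of Tfr2 1425381_a_at was 0.71 (SE 0.17, 95% confidence interval 0.31 to 1.12, unadjusted p = 0.00366, adjusted p = 0.135), which did not pass. It passed with the RNA integrity ratio as a covariate (adjusted p = 0.0276) and with a replicate block within each transgene (adjusted p = 0.0393), 2 of its 22 alternatives, over which the adjusted p ranged from 0.0276 to 0.47. The interaction was 0.67 (SE 0.25, adjusted p = 0.275), made of 0.29 with resection in A20 livers (adjusted p = 0.497) and -0.38 in βgal livers (adjusted p = 0.265).

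The second Tfr2 probe set, Tfr2 1459994_x_at, lay the same way after resection, with 2845 and 2825 in post-A20 livers, against 2246 and 1744 in post-βgal livers (log2 fold change 0.52, SE 0.24, adjusted p = 0.3). Before resection it had 2730.4 and 2523 in pre-A20 livers, against 3112 and 1948 in pre-βgal livers, a spread within pre-βgal wider than the distance between the groups. This probe set also carries the suffix _x_at, and which other genes it reads was not tested.

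Tfrc, the receptor by which most cells take up transferrin iron, gave different pictures on its probe sets. Tfrc 1452661_at, the brightest, had 1006 and 1417 in post-A20 livers and 953 and 1659 in pre-A20 livers. It had 1193 and 1147 in post-βgal livers, against 2033 and 2014 in pre-βgal livers, which lay above all other arrays. The A20 pools of a group differed by more than the 2 A20 groups did. The log2 fold change was -0.78 with resection in βgal livers (SE 0.28, adjusted p = 0.181), -0.07 with resection in A20 livers (adjusted p = 0.934) and -0.68 in pre-A20 against pre-βgal livers (adjusted p = 0.215). The last of these was -0.28 without pre-A20 array 1 (adjusted p = 0.575) and -1.07 without pre-A20 array 2 (adjusted p = 0.275). With a replicate block within each transgene, Tfrc 1452661_at was called with resection in βgal livers (adjusted p = 0.033) and in pre-A20 against pre-βgal livers (adjusted p = 0.0388).

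The 2 other tested Tfrc probe sets did not share that order. Tfrc 1422966_a_at had 722 and 807 in post-A20 livers, against 501 and 637 in post-βgal livers, without overlap (log2 fold change 0.42, adjusted p = 0.27), and the pre-A20 arrays at 639 and 775 overlapped the pre-βgal arrays at 657 and 719.6. Tfrc 1422967_a_at ranged from 91 to 143 over the 8 arrays and had a log2 fold change of -0.38 in pre-A20 against pre-βgal livers (adjusted p = 0.218). The 3 control probe sets for Tfrc, dim throughout, spanned 64 to 160 at the 3′ end, 42 to 83 in the middle and 50 to 87 at the 5′ end.

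Erythroid precursors also carry much Tfrc. The erythroid marker sum (5 of 9 listed genes tested, none at 0 on any array) was 2202 to 2224 in post-A20 livers, against 4623 to 4674 in pre-A20 livers, and 1624 to 2493 in post-βgal livers, against 2491 to 2891 in pre-βgal livers. Alas2, the erythroid enzyme of haem synthesis, carried most of its difference in A20 livers, with 1439 and 1333 in post-A20 livers, against 3669 and 3720 in pre-A20 livers (log2 fold change -1.41, adjusted p = 0.129). The list did not move as a whole, with a median log2 fold change of -0.07 with resection in A20 livers and -0.21 in βgal livers and no call in either. Its part in the Tfrc values was not tested.

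Transferrin, the plasma carrier of iron that hepatocytes secrete, could be read only through Trf 1425546_a_at, a probe set annotated both to Trf and to Srprb (a subunit of the signal recognition particle receptor), so that its signal cannot be assigned to Trf. It was among the steadiest, with 14965 to 17001 over all arrays, and only 1.02% of tested probe sets varied less over the 8 arrays. In the 4 comparisons of 2 groups its log2 fold changes lay between -0.03 and 0.11 (adjusted p 0.584 to 0.913).

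Slc40a1 codes for ferroportin, which moves iron out of macrophages and hepatocytes and is the target of hepcidin. On Slc40a1 1417061_at the signal was 2511 and 2145 in post-A20 livers, against 3770.1 and 3643 in pre-A20 livers. It was 1815 and 2440.0 in post-βgal livers, against 3317 and 3407 in pre-βgal livers. All 4 arrays after resection lay below all 4 before it, and the group means (± SD, n = 2 arrays) were 2328 ± 259 in post-A20 and 3707 ± 89.9 in pre-A20 livers, and 2127 ± 442 in post-βgal and 3362 ± 63.4 in pre-βgal livers.

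Averaged over the transgenes, Slc40a1 1417061_at fell by 0.67 on the log2 scale with resection (SE 0.13, 95% confidence interval -0.98 to -0.37, adjusted p = 0.0409, limma), 1.59-fold lower. The log2 fold change was -0.67 in A20 livers (SE 0.19, adjusted p = 0.166) and -0.67 in βgal livers (SE 0.19, adjusted p = 0.122), neither past the threshold alone. The difference between these responses was 0.00 (95% confidence interval -0.61 to 0.61), an interval about as wide as the response itself on either side. A20 stood at 0.14 against βgal both before (adjusted p = 0.697) and after resection (adjusted p = 0.702).

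The call on Slc40a1 was near the threshold. It was lost without any 1 of the 2 post-A20, 2 pre-A20 and 2 post-βgal arrays (adjusted p 0.0634 to 0.177) and kept without either pre-βgal array (0.0466 and 0.0483), while the log2 fold change stayed between -0.78 and -0.57. It was also lost without both βgal arrays of high 3′ over 5′ ratio (-0.58, adjusted p = 0.0801) and after quantile normalization (-0.64, adjusted p = 0.0676), and it was kept with that ratio as a covariate (-0.69, adjusted p = 0.00845).

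The second ferroportin probe set was lowest on the pair of βgal arrays with a high 3′ over 5′ ratio. Slc40a1 1448566_at had 1085 and 1139 in post-A20 livers, against 2003 and 1723 in pre-A20 livers, and 414 and 1308 in post-βgal livers, against 552 and 1606 in pre-βgal livers. The low value in each βgal group, 414 and 552, belonged to the arrays with β-actin ratios of 3.64 and 7.0. The A20 arrays did not overlap and were lower after resection, whereas the βgal arrays before and after resection overlapped. The log2 fold change averaged over the transgenes was -0.54 (SE 0.41, adjusted p = 0.537) with all arrays, -0.75 with the ratio as a covariate (SE 0.15, adjusted p = 0.0199) and -0.51 without both arrays (SE 0.14, adjusted p = 0.114).

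**Figure D2:**
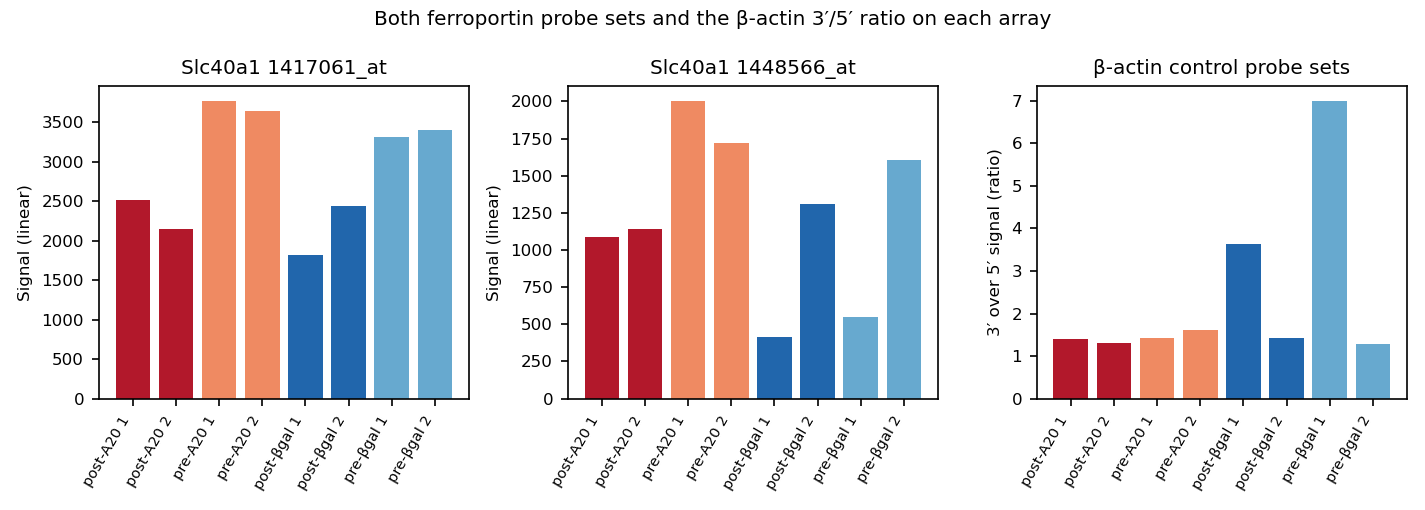
Signal of both Slc40a1 probe sets (linear, axis from 0) and the 3′ over 5′ ratio of the β-actin control probe sets, as a bar for each of the 8 arrays. Slc40a1 1448566_at is at 414 and 552 on the βgal arrays whose ratio is 3.64 and 7.0, while Slc40a1 1417061_at is lower on every array after resection than on any before it.

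Ferroportin is carried by several liver cell types, and in whole liver RNA fewer cells of a type and less RNA per cell cannot be told apart. The Kupffer cell and macrophage marker sum (7 of 8 listed genes tested, none at 0) was 5435 to 5855 in post-A20 livers, against 3555 to 3785 in pre-A20 livers, and 4452 to 5655 in post-βgal livers, against 5969 to 6500 in pre-βgal livers. Csf1r and Cd5l carried most of this sum. With resection, 6 of the 7 genes had log2 fold changes above 0 in A20 livers (median 0.56). In βgal livers 5 of the 7 had log2 fold changes below 0 (median -0.37). Marco, a scavenger receptor, had a log2 fold change with resection of -0.47 in A20 and -0.36 in βgal livers, and Cd68, a lysosomal protein of macrophages, had 0.72 and 0.75, with none of the 7 genes called in either. Averaged over the transgenes Cd68 rose by 0.74 (adjusted p = 0.0263) and the list's median was 0.07. The sinusoidal endothelial sum (8 of 8 genes tested, none at 0) was 3275 to 3505 in post-A20 livers, against 4145 to 4217 in pre-A20 livers, and 3373 to 3749 in post-βgal livers, against 3973 to 4119 in pre-βgal livers, lower after resection with both. Averaged over the transgenes, 6 of its 8 genes had log2 fold changes below 0 and 2 above, with a median of -0.16. Kdr, a VEGF receptor, fell by 0.90 (adjusted p = 0.0213), while Lyve1, a hyaluronan receptor, rose by 1.61 (adjusted p = 0.00304). The part of either cell type in the Slc40a1 result was not tested.

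Slc11a2 codes for DMT1, which carries iron across the apical membrane of enterocytes and out of endosomes, and its 4 probe sets did not move together. Slc11a2 1452078_a_at, the brightest, had 413 and 513 in post-A20 livers, against 327.5 and 328.5 in pre-A20 livers, and 413 and 500.4 in post-βgal livers, against 352 and 381 in pre-βgal livers. All 4 arrays after resection lay above all 4 before it. The log2 fold change averaged over the transgenes was 0.38 (SE 0.11, 95% confidence interval 0.12 to 0.65, adjusted p = 0.126), which did not pass.

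Slc11a2 1426441_at had 345 and 327 in post-A20 livers, against 234 and 219 in pre-A20 livers, and 362 and 506 in post-βgal livers, against 376 and 306 in pre-βgal livers. Its log2 fold change was 0.54 with resection in A20 livers (adjusted p = 0.231) and 0.32 in βgal livers (adjusted p = 0.34). Slc11a2 1441709_at had 405 and 348 in post-A20 livers, against 243 and 270.1 in pre-A20 livers, without overlap (log2 fold change 0.52, adjusted p = 0.185), while its βgal arrays, at 331 to 398, overlapped (-0.03, adjusted p = 0.937). So 3 of the 4 probe sets were brighter on both post-A20 arrays than on both pre-A20 arrays.

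The fourth, Slc11a2 1417584_at, was set apart by transgene and not by resection. It had 305 and 331 in post-A20 and 333 and 307 in pre-A20 livers, against 209 and 257 in post-βgal and 234 and 277 in pre-βgal livers. All 4 A20 arrays lay above all 4 βgal arrays, with a log2 fold change of 0.37 averaged over resection (SE 0.10, adjusted p = 0.0837). Slc11a2 1426441_at ran the other way in the same comparison, at -0.44 (SE 0.13, adjusted p = 0.0894), so no direction of Slc11a2 with A20 can be read from these probe sets. Without pre-βgal array 2 both were called, with adjusted p of 0.0418 and 0.0445, still in opposite directions.

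Fth1 codes for the heavy chain of ferritin, which oxidises iron for storage. Fth1 1448771_a_at had 8771 and 9198 in post-A20 livers, against 9694 and 8956 in pre-A20 livers, and 9505 and 9682 in post-βgal livers, against 9531 and 9021 in pre-βgal livers. Only 0.836% of tested probe sets varied less over the 8 arrays, and its log2 fold changes in the same 4 comparisons lay between -0.09 and 0.05 (adjusted p 0.679 to 0.981). Fth1 1427021_s_at ranged from 12829 to 17940.0, with both of these limits in βgal livers, and its log2 fold changes lay between -0.10 and 0.21 (adjusted p 0.426 to 0.934).

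**Figure D3:**
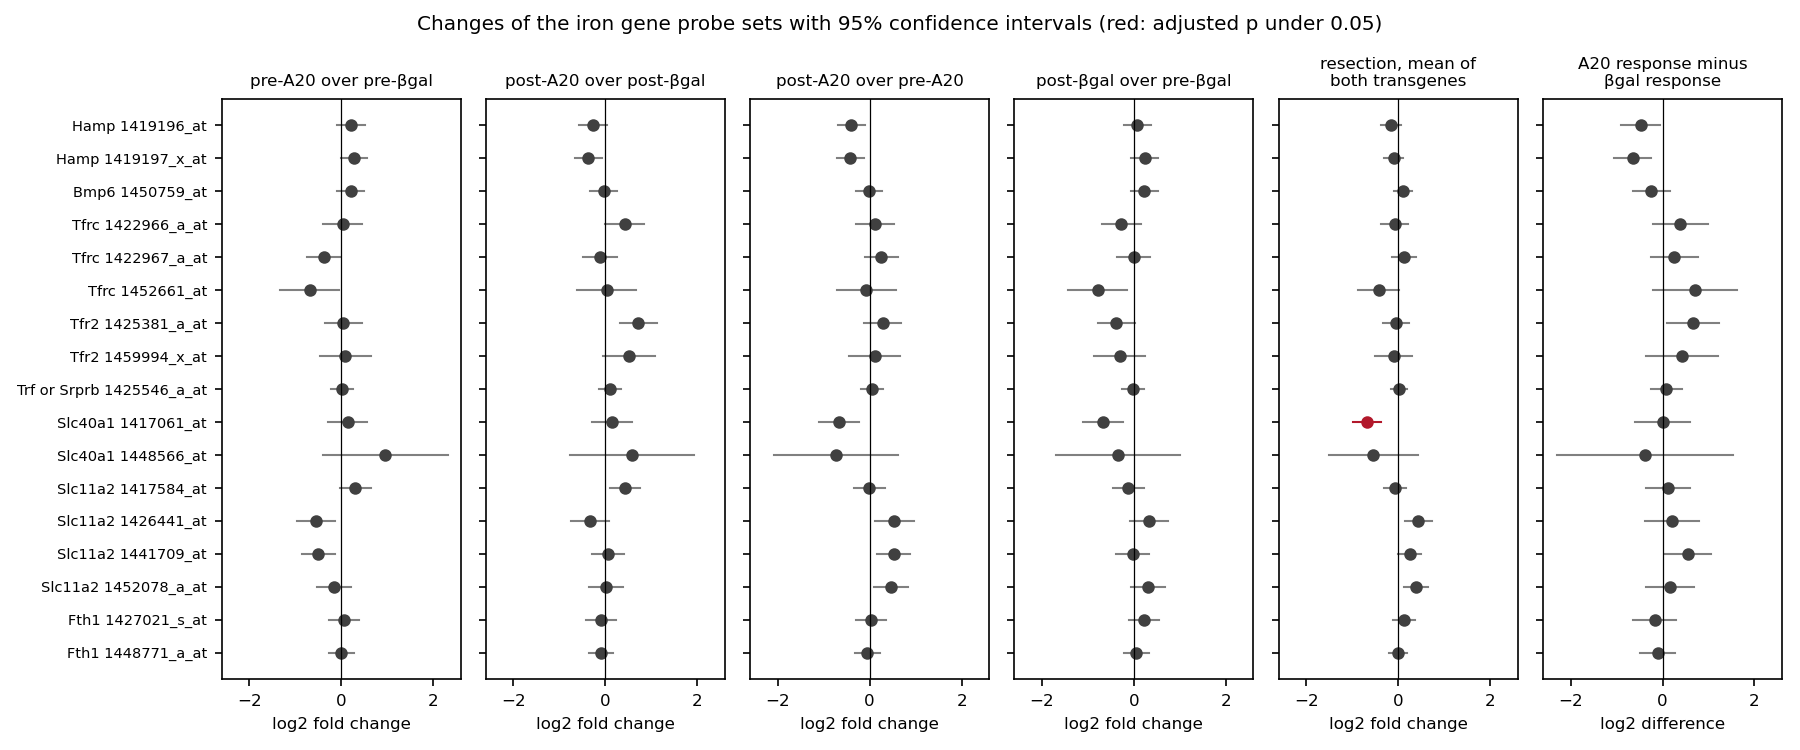
Log2 fold changes (points) with 95% confidence intervals (lines) of the 17 tested probe sets in 6 comparisons, each panel naming the groups compared, the last being the difference between the responses to resection with A20 and with βgal. Red marks the only call, Slc40a1 1417061_at with resection averaged over the transgenes at -0.67. The interval of Slc40a1 1448566_at is the widest.

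The members spread over the arrays to very different degrees, measured as the root mean square deviation of the log2 values from their mean. It was 0.36 for Slc40a1 1417061_at, more than for 88.2% of tested probe sets, and 0.74 for Slc40a1 1448566_at, more than for 98.6%. For Tfrc 1452661_at it was 0.40, above 90.5% of probe sets, and for Tfr2 1425381_a_at 0.28, above 78.1%. Hamp 1419197_x_at was close to the middle, with 0.18, above 55.1%, and Bmp6 1450759_at lay low, with 0.10, above 16.3%.

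For each member the genes of most similar profile were sought among 17789 named genes by the smallest root mean square difference of the centred log2 values over the 8 arrays. For Slc40a1 they were Arhgap24 at 0.07, Mx1 at 0.12 and Sqor at 0.13, beside the spread of 0.36 of Slc40a1 itself. For Tfr2 they were Abcc2 at 0.08, Hpn at 0.09 and Sec16b at 0.09, beside 0.28. For Hamp they were 0610012G03Rik, Zfp873 and Spsb2 at 0.07 to 0.08, beside 0.18, and for Tfrc the nearest, Gprin3, Cldn5 and Car14, stayed at 0.21 to 0.22, beside 0.40. These are descriptions over arrays of 4 groups, and with so many candidates close profiles are easily found.

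The wider iron pathways were read through 83 genes in 9 lists, each by its probe set of highest mean signal. With resection averaged over the transgenes 10 of the 83 passed the test, 8 higher and 2 lower, or 12% of them. Over all 17790 genes read the same way, 4.03% passed in that comparison. With resection 2 passed in A20 livers (Bmper and Lcn2) and 4 in βgal livers (Bmper, Lcn2, Scara5 and Slc39a14), all higher. For A20 there were 4 in pre-A20 against pre-βgal livers (Alas1 higher, Jak2, Slc48a1 and Lcn2 lower), 1 in post-A20 against post-βgal livers (Bmper, lower), and 4 averaged over resection (Alas1 and Fdx1 higher, Bmper and Lcn2 lower), and the interaction had none (limma, 17 of the 83 at an unadjusted p under 0.05). Over the 17790 genes the shares called were 0.731% with resection in A20 livers, 1.44% with resection in βgal livers, 1.91% in pre-A20 against pre-βgal livers, 0.309% in post-A20 against post-βgal livers, 4.59% for A20 averaged over resection and 0% for the interaction. The list medians for resection averaged over the transgenes lay between -0.13 and 0.17, beside -0.01 over all probe sets. The lists were drawn up with results of these data known, so these counts are a description.

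**Figure D4:**
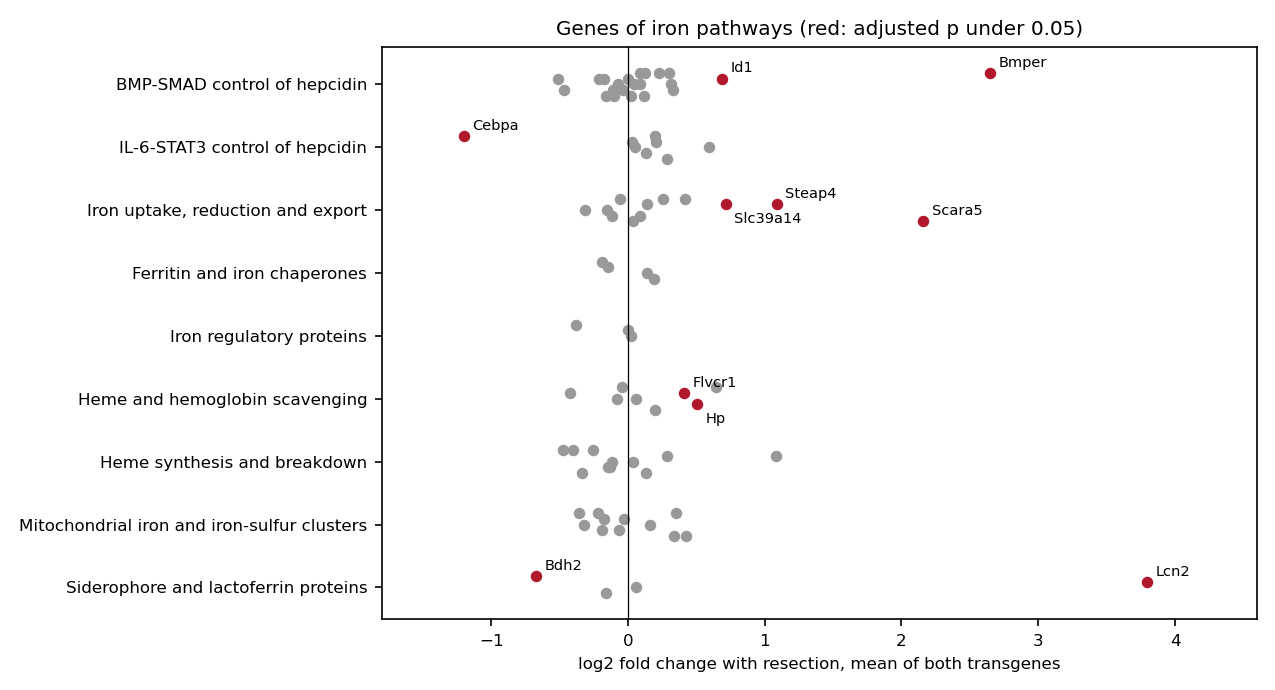
Log2 fold change with resection, averaged over the transgenes, of the 83 genes tested in 9 iron pathway lists, a point for each gene. Red and named are the 10 genes with adjusted p under 0.05, of which 8 lie above 0.

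Among 22 genes of BMP-SMAD control of hepcidin, 2 rose with resection and none fell. Bmper, which codes for a secreted protein that binds BMPs, had 380 and 491 in post-A20 livers, against 64 and 69 in pre-A20 livers, and 982 and 919 in post-βgal livers, against 112 and 122 in pre-βgal livers. It rose by 2.65 on the log2 scale (SE 0.10, adjusted p = 0.000291) and was lower in post-A20 than in post-βgal livers (log2 fold change -1.11, adjusted p = 0.0361), a call lost without any 1 of the post-A20, pre-A20 or post-βgal arrays (adjusted p up to 0.211). Id1, a target gene of BMP signalling, rose by 0.69 (SE 0.12, adjusted p = 0.026), with 392 and 516 in post-A20 livers, against 287 and 286 in pre-A20 livers, and 553 and 647 in post-βgal livers, against 332 and 364 in pre-βgal livers.

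Among 8 genes of IL-6-STAT3 control, Cebpa, a transcription factor that also binds the hepcidin promoter, fell with resection by 1.20 on the log2 scale (SE 0.19, adjusted p = 0.0196). It had 1795 and 1636 in post-A20 livers, against 5543 and 3235 in pre-A20 livers, and 1234 and 1168 in post-βgal livers, against 2258 and 2974 in pre-βgal livers. Jak2, a kinase of the interleukin 6 receptor complex, was lower in pre-A20 than in pre-βgal livers (log2 fold change -1.20, adjusted p = 0.036) on the probe set used, while another of its probe sets had 0.18 (adjusted p = 0.722).

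Of 12 genes of iron uptake, reduction and export, 3 rose with resection and none fell. Scara5, a receptor that takes up ferritin, had 834 and 770.4 in post-A20 livers, against 203 and 279 in pre-A20 livers, and 1635 and 2112 in post-βgal livers, against 203 and 400.3 in pre-βgal livers, a log2 rise of 2.16 (SE 0.22, adjusted p = 0.00478). A dimmer probe set of Scara5 had -0.01 (adjusted p = 0.968). Slc39a14, which codes for ZIP14, the carrier of iron not bound to transferrin, had 2172 and 2553 in post-A20 livers, against 1917 and 1775 in pre-A20 livers, and 3082 and 3549.5 in post-βgal livers, against 1610.2 and 1503 in pre-βgal livers. It rose by 0.72 averaged over the transgenes (adjusted p = 0.0228) and by 1.08 in βgal livers (adjusted p = 0.0346). Of its 3 dimmer probe sets, averaged over the transgenes, the brightest also rose, by 1.01 (adjusted p = 0.0218), while the others had 0.25 (adjusted p = 0.412) and 0.16 (adjusted p = 0.611), and none of the 3 passed in βgal livers (0.13 to 1.26, adjusted p 0.0539 to 0.762). Steap4, a metalloreductase, rose by 1.09 (SE 0.21, adjusted p = 0.0408), and its other probe set had 1.45 (adjusted p = 0.368).

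Haem and siderophore genes also held calls. Hp, haptoglobin, which binds free haemoglobin, had 18089 and 18859 in post-A20 livers, against 11732 and 12243 in pre-A20 livers, and 20626 and 20936 in post-βgal livers, against 17462 and 14301 in pre-βgal livers, a rise of 0.51 (adjusted p = 0.025). Flvcr1, a haem exporter, rose by 0.41 (adjusted p = 0.0494), and its other probe set had 0.11 (adjusted p = 0.396). Lcn2, lipocalin 2, which binds iron-laden siderophores, rose by 3.79 averaged over the transgenes (adjusted p = 0.0012). Its rise was 5.26 in A20 livers (adjusted p = 0.00562) and 2.33 in βgal livers (adjusted p = 0.0282), and its interaction did not pass. Bdh2, an enzyme proposed to make a mammalian siderophore, fell by 0.67 (adjusted p = 0.0234). Neutrophils also hold Lcn2. The neutrophil marker sum (6 of 7 listed genes tested, none at 0) was 1932 to 2151 in post-A20 livers, against 1596 to 1643 in pre-A20 livers, and 4635 to 5330.3 in post-βgal livers, against 2633 to 3395 in pre-βgal livers. S100a8 and S100a9, alarmins that other cells can also make, carried its differences and were the 2 of the 6 called with resection averaged over the transgenes, rising by 1.14 (adjusted p = 0.0258) and 1.19 (adjusted p = 0.0205), while the list's median was 0.06 and Mpo, a granule enzyme, had -0.18 (adjusted p = 0.303). The part of neutrophils in the Lcn2 values was not tested.

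In pre-A20 against pre-βgal livers 4 of the 83 genes were called, of which Jak2 is given above. Alas1, the first enzyme of haem synthesis, had 6824 and 6703 in pre-A20 livers, against 1647 and 2327 in pre-βgal livers, higher by 1.78 on the log2 scale (SE 0.21, adjusted p = 0.0214), and its second probe set gave 1.90 (adjusted p = 0.0179). Slc48a1, a haem transporter of lysosomes, had 1085 and 930.3 in pre-A20 livers, against 1854 and 2101 in pre-βgal livers, a log2 fold change of -0.96 (adjusted p = 0.0411), and its second probe set had -0.38 (adjusted p = 0.213). Lcn2 had -3.03 in the same comparison (adjusted p = 0.0208). Averaged over resection, Fdx1, a ferredoxin of mitochondria, was higher with A20 by 0.66 (adjusted p = 0.0468).

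Not all of these calls were stable when arrays were left out. Of the 10 genes called with resection averaged over the transgenes, Bmper, Scara5 and Lcn2 kept their calls in all 8 fits that left out 1 array, and the other 7 (Id1, Hp, Flvcr1, Cebpa, Slc39a14, Steap4 and Bdh2) lost them in 5 to 7 of the 8, among them without each post-βgal array, with adjusted p up to 0.186. In pre-A20 against pre-βgal livers the calls on Alas1, Slc48a1, Jak2 and Lcn2 were kept in 3, 1, 1 and 5 of the 8 fits, and each was lost without pre-βgal array 1. With resection in βgal livers those on Bmper, Scara5, Lcn2 and Slc39a14 were kept in 8, 6, 3 and 1 of the 8. For A20 averaged over resection those on Bmper, Alas1, Lcn2 and Fdx1 were kept in 6, 4, 4 and 2. Without both βgal arrays of high 3′ over 5′ ratio the calls on Flvcr1 (adjusted p = 0.052) and Steap4 (0.0548) with resection, and on Alas1 (0.0517), Slc48a1 (0.0758), Jak2 (0.0926) and Lcn2 (0.0517) before it, were also lost, as were those on Slc39a14 (0.0917) and Lcn2 (0.127) with resection in βgal livers, on Bmper in post-A20 against post-βgal livers (0.077) and on Fdx1 and Lcn2 for A20 averaged over resection (0.052 each). The other 8 of the 10 calls with resection averaged over the transgenes were kept.

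None of the 4 ferritin and iron chaperone genes, the 3 iron regulatory protein genes or the 11 mitochondrial iron and iron-sulfur cluster genes passed with resection averaged over the transgenes. Their log2 fold changes ranged from -0.19 to 0.19, from -0.38 to 0.02 and from -0.35 to 0.43. Among all of these, only Fdx1 was called in any comparison, the average for A20.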

How the data were processed

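The deposited table gave 1 normalized linear signal intensity for each probe set and array. The authors' methods describe scaling to an invariant set in dChip, the GEO records list MAS5, and neither says which produced the deposited intensity values. Probe sets were named through GEO's annotation of the array. Values were analysed as log2(signal + 16) after leaving out 64 control probe sets and those without a mean signal of at least 40 in any group, which left 42703. limma 3.58.1 in R 4.3.3 was fitted to the means of the 4 groups over all 8 arrays with a variance trend on intensity (residual degrees of freedom 4), giving 7 comparisons, two-sided, with Benjamini-Hochberg adjustment over all 42703 probe sets and calls at adjusted p under 0.05. Columns of the table were matched to samples by their labels. The members, the gene lists and the tests were chosen with earlier results of these data known. All member probe sets were to be described, with at most 4 genes of smallest p named from each pathway list and the 3 genes of nearest profile for each member. The fit was tested on simulated data with changes only in post-A20 livers. Against post-βgal livers it recovered 7.2% of log2 changes of 0.5 and 52% of log2 changes of 1. Against pre-A20 livers it recovered 7.6% and 53%. A change of such size that did not pass is therefore not shown to be absent. Figures were drawn with matplotlib 3.10.9 in Python 3.11.15. With intensities of 2 arrays a group and no counts, the number of arrays limits the precision.

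Alternatives were other offsets (1 and 32), no filter or a minimum of 100, quantile or median scaling, no variance trend, 1 probe set per gene, the replicate number as a block, fits of only the 4 arrays compared, a 90% lower bound of the fold change of 1.5, the β-actin 3′ over 5′ ratio as a covariate, leaving out both βgal arrays of high ratio, and leaving out each array. The bound took its threshold from the study's methods. It was computed here from the limma fit, whereas the study computed its own in dChip. The checks of pathway genes, of their other probe sets and of the members' dimmer probe sets under these settings were added after seeing the data. A direction was read only where the unadjusted p was under 0.05 in either fit being compared.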

Additional observations from a re-analysis of the deposited data

Results flagged for a closer look

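For 4 probe sets of 3 members the arrays of one transgene or time lay in one direction and those of the other in the opposite one, without overlap within either. The arrays of Hamp 1419197_x_at and Tfr2 1425381_a_at did so with resection, and those of both hepcidin probe sets did so for A20 against βgal before and after resection. The interaction of A20 and resection, which tests the difference between the responses in A20 and in βgal livers, was -0.65 for Hamp 1419197_x_at (SE 0.18, adjusted p = 0.23), -0.47 for Hamp 1419196_at (SE 0.18, adjusted p = 0.291), 0.67 for Tfr2 1425381_a_at (SE 0.25, adjusted p = 0.275) and -0.24 for Bmp6 1450759_at (SE 0.18, adjusted p = 0.516), none past the threshold in limma over all probe sets. For Bmp6, which did so with resection, the 4 A20 arrays lay between 382 and 391. With 2 arrays a group, signals that do not overlap were found for 50.4% to 57% of all probe sets in a comparison of 2 groups. The share of all probe sets with opposite directions in a pair of comparisons was not counted. The 4 probe sets are therefore not shown to exceed a background.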

How the results depend on the processing

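Over 2497 member fold changes recomputed under the alternatives, none with an unadjusted p under 0.05 in either fit changed direction, 105 with larger p changed sign, 10 lost a call and 17 gained one. The count of member probe sets called with resection averaged over the transgenes, 1 of 17, was 0 with quantile normalization (Slc40a1 1417061_at at -0.64), with a 90% lower bound of the fold change of at least 1.5 (Slc40a1 at -0.67, bound 1.34) and with the replicate block (Slc40a1 at -0.67, adjusted p = 0.052). Leaving out 1 array gave 0 to 1, with Slc40a1 between -0.78 and -0.57. It was 2 with the RNA integrity ratio as a covariate, which also called 2 for post-A20 against post-βgal livers, 1 for post-βgal against pre-βgal livers and 2 for A20 averaged over resection, each 0 in the fit reported. These were Slc40a1 1448566_at beside Slc40a1 1417061_at with resection (adjusted p = 0.0199 and 0.00845), both Tfr2 probe sets for post-A20 against post-βgal (0.0276 and 0.0364) and for A20 averaged over resection (0.0376 and 0.0285), and Slc40a1 1417061_at in βgal livers (0.0343). Without both βgal arrays of high ratio the count stayed at 1, but the call was Slc11a2 1426441_at (0.62, adjusted p = 0.0309) and not Slc40a1 (-0.58, adjusted p = 0.0801). For A20 averaged over resection, leaving out 1 array gave 0 to 2.

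Same-numbered samples did not deviate together in general: correlations of deviations ranged from -0.19 to 0.68 over the 6 pairs of groups, highest between pre-βgal and post-βgal. A replicate block within each transgene gave 2 member calls for pre-A20 against pre-βgal livers, 1 for post-A20 against post-βgal, 1 for resection with βgal, 3 for A20 averaged over resection and 2 for resection averaged over the transgenes. The calls were Tfrc 1452661_at (adjusted p = 0.0388) and Slc40a1 1448566_at (0.0154) in the first, Tfr2 1425381_a_at (0.0393) in the second, Tfrc 1452661_at (0.033) in the third, Tfr2 1425381_a_at (0.0444), Slc40a1 1448566_at (0.00785) and Slc11a2 1417584_at (0.0291) for A20, and Slc40a1 1417061_at (0.0165) and 1448566_at (0.0305) for resection. The calls on Slc40a1 1448566_at for A20 were of higher signal with A20. Its log2 fold change averaged over resection was 0.77 with all arrays and -0.01 without both βgal arrays of high ratio. In pre-A20 against pre-βgal livers it was 0.97 and 0.21. Over all probe sets the counts moved widely. With resection averaged over the transgenes 1327 were called, against 522 to 4063 under other settings and 183 to 1874 without 1 array. The same figures were 783, 0 to 4504 and 8 to 3497 for pre-A20 against pre-βgal, 121, 119 to 1836 and 1 to 683 for post-A20 against post-βgal, 233, 227 to 1746 and 2 to 637 for resection with A20, 472, 0 to 3925 and 47 to 1054 for resection with βgal, and 1740, 427 to 6155 and 44 to 5435 for A20 averaged over resection. The causes of these shifts were not tested.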
